A study of Mus musculus with 2 samples.

Results

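Endothelial nuclei of the fetal mouse brain were examined in single-nucleus RNA-seq counts from 1 wildtype library and 1 Cav1 knockout library. The members were chosen by measured values. A nucleus needed at least 500 detected genes, at most 5% mitochondrially encoded UMIs (unique molecular identifiers, which count captured RNA molecules), and at least 4 UMIs in sum over Flt1, Kdr, Cldn5, Pecam1, Tek, Cdh5, Emcn and Mecom, with at least 2 of these 8 genes detected. Nuclei with more than 3 UMIs of Col1a1, Col1a2 and Col3a1, or more than 2 UMIs of Rgs5, Kcnj8, Abcc9 and Higd1b, were left out. By this rule 120 of 13366 kept nuclei were members, 46 of 6686 in the wildtype library and 74 of 6680 in the knockout library. Both libraries came from frozen whole brains of fetal mice, from which nuclei were isolated and captured on the 10x Genomics 3′ platform. The labels used here name the genotypes only as wildtype and Cav1 knockout, and they give no stage of gestation, sex, strain, allele, cell type of the deletion or number of fetuses per library. With 1 library per genotype no difference has a replicate check. All intervals are 95% intervals that cover counting error only, not the spread between nuclei or fetuses.

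Endothelial cells line the blood vessels. In the fetal brain they grow in by sprouting from a surrounding plexus, guided by VEGF, and under Wnt signals from neural cells they acquire tight junctions and nutrient transporters, which form the blood-brain barrier. Caveolin 1, the product of Cav1, coats caveolae, small flask-shaped pits of the plasma membrane that are abundant in most endothelial cells and kept sparse in those of the brain, where the lipid transporter Mfsd2a limits vesicle traffic.

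The windows just before the annotated starts of 4 genes are shown. Flt1, Emcn and Egfl7 mark the nuclei described here, as do other genes whose windows are not shown, and Cav1 is the gene named in the genotype. The windows hold the 250 bases upstream of the start, 5′ to 3′ on the gene's strand, from RefSeq on GRCm38.p6. Capitals mark the letters AGGAAG or their reverse complement, the core letters bound by ETS factors, a family to which the endothelial regulators Erg and Fli1 belong.
Flt1, chr5:147726012-147726261, minus strand: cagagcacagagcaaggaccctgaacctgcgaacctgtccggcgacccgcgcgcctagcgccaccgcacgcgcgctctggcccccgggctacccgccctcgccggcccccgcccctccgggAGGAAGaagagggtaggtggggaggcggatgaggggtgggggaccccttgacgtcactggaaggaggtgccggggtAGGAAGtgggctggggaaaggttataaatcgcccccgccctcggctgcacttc
Emcn, chr3:137340828-137341077, plus strand: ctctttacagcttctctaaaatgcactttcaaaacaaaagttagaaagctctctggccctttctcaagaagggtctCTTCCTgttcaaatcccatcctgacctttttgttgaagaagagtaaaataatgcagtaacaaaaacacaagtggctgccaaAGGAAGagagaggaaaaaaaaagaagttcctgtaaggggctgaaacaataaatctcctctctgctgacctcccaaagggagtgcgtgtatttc
Egfl7, first of 3 annotated starts, chr2:26580833-26581082, plus strand: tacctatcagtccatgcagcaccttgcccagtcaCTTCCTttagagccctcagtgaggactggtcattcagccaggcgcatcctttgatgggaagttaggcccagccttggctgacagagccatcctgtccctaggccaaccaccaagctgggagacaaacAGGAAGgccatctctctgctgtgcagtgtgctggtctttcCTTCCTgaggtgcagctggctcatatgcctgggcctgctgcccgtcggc
Cav1, first of 2 annotated starts, chr6:17306085-17306334, plus strand: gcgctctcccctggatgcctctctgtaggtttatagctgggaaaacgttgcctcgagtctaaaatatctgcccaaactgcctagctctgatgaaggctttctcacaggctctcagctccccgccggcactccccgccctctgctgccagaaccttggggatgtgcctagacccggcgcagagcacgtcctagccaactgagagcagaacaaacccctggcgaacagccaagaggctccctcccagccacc
The letters were found 2 times in the Flt1 window, 2 times in that of Emcn, 3 times in that of Egfl7 and 0 times in that of Cav1. Windows not shown held fewer. Those of the rule gene Cldn5 and of Slc2a1, Mfsd2a and Cav2 held 0 matches, and those of Tie1 and Adgrl4 held 1. Egfl7 starts 2 and 3 had 1 and 0, and Cav1 start 2 had 0. The marker windows shown are therefore the richest of these and do not stand for endothelial genes in general. Of the 48 genes in the endothelial lists, 26 were matched in the table by symbol, with 34 starts. The letters, on either strand, stood in 17 of these 34 windows, against 29.5% of all 32851 windows of the same length. Some of the 34 windows belong to the same gene. Other letters were looked for too. ACAAAG, of Sox factors, stood in 4 of the 34, against 16.5% of all windows, and TATAAA in 2, against 12.4%. A match is a description of the letters and not of binding.

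The nuclei kept in the wildtype library came from 9763 deposited barcodes with 19048835 UMIs, and those of the knockout library from 10811 barcodes with 22504908 UMIs. Remaining nuclei, those that were not members, had a Cav1 level of 3.43 CPM (a gene's UMIs scaled by all UMIs of the group) in the first and 3.94 CPM in the second, so the level was not lower in the library labelled knockout. Nuclei and libraries are therefore named wildtype-labelled or knockout-labelled, and paired values follow that order. The libraries shared 43 barcode sequences, none of them between members.

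Endothelial members made up 0.688% of kept wildtype-labelled nuclei (0.504% to 0.917%) and 1.11% of kept knockout-labelled nuclei (0.871% to 1.39%). Their median depth was 3064.5 and 3696 UMIs, with a range of 927 to 52277 and of 882 to 69786. The 8 rule genes summed to a median of 20 UMIs per wildtype-labelled member and 16 per knockout-labelled member, and the lowest sum was 4 in both. Just inside the threshold, at a sum of 4 or 5, stood 2 wildtype-labelled nuclei with a median of 2556.5 UMIs and 8 knockout-labelled nuclei with a median of 10166 UMIs. Just outside, at a sum of 3, stood 6 and 13 nuclei. Their median share of UMIs from 40 endothelial genes that the rule did not use was 0.0900% and 0.0980%. Inside, it was 0.701% and 0.0623% at a sum of 4 or 5, 0.863% and 0.0845% at 6 to 9, and 1.58% and 1.45% at 10 or more. Knockout-labelled members with a sum under 10 were thus no richer in these genes than the nuclei just outside.

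The members were of more than one kind. Some carried neuronal RNA: the summed share of 15 neuron genes had a median of 0.949% of UMIs in 14 wildtype-labelled and 1.11% in 41 knockout-labelled members (those left outside the core defined next), where cortical neuron nuclei, taken as a comparator, had medians of 1.46% and 1.49%. A core was set after these values were seen, as the members with at most 0.5% neuron UMIs and at least 0.5% UMIs from the 40 endothelial genes outside the rule. The core held 32 wildtype-labelled and 33 knockout-labelled nuclei, 0.479% (0.328% to 0.675%) and 0.494% (0.340% to 0.693%) of kept nuclei. Its shares of non-rule endothelial UMIs ran from 0.603% to 2.83% and from 1.02% to 2.51%, and its median depth was 2651 and 2098 UMIs. The difference in the share of members, 0.42 percentage points, was 0.0154 points (−0.22 to 0.251, normal approximation) in the core.

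**Figure D1:**
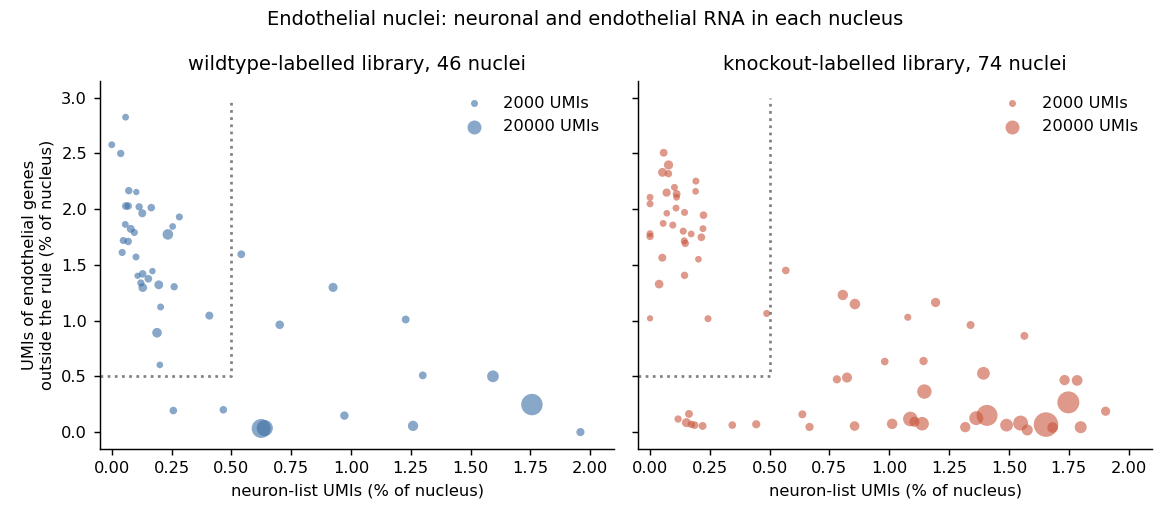
Each point is 1 endothelial nucleus by the rule, with its share of UMIs from 15 neuron genes on the x axis and from 40 endothelial genes outside the rule on the y axis, both in percent, and its area growing with its UMIs. The dotted corner encloses the core, 32 wildtype-labelled and 33 knockout-labelled nuclei; the deepest members of both libraries lie outside it.

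The members outside the core numbered 14 and 41, and held 65.2% and 85.3% of all member UMIs. Their median depth was 4858.5 and 8380 UMIs. Among them were 2 wildtype-labelled nuclei of 28146 and 40353 UMIs with 248 and 331 UMIs of erythroid genes such as the haemoglobins. A knockout-labelled nucleus of 4280 UMIs held 195 UMIs of choroid plexus genes. Not all of them were rich in neuronal RNA: 2 and 8 held at most 0.5% neuron UMIs and fell short of the endothelial limit. Sums over all members are therefore mostly sums over these nuclei, and values in the core are given beside them. Scrublet's automatic threshold marked 0 nuclei in each library and so did not work as a doublet caller here. Whether these nuclei are doublets, or nuclei with RNA from outside, was not tested.

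The label was checked with endothelial genes outside the rule. Of these 40 genes, 36 had at least 20 UMIs over both libraries' members. Over all members their median fold over the remaining nuclei was 23.9 for wildtype-labelled and 13.7 for knockout-labelled nuclei. Of the 36, 31 and 28 were at 4-fold or more, and 28 were so in both libraries. Among all 8154 genes with at least 20 member UMIs, 5.85% were at 2-fold or more in both libraries and 2.86% at 4-fold or more. In the core the median folds of the 36 genes were 51.4 and 55.5, and 34 and 35 were at 4-fold or more. Of 33 with at least 20 core UMIs, 32 reached 4-fold in both libraries. Among all 2202 genes with at least 20 core UMIs, 16.9% did. Since the core was selected on these genes, its folds only describe it.

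The 20 genes with the highest fold of all members over the remaining nuclei, among those with at least 50 member UMIs, include 4 rule genes. Fli1, an ETS factor, had 131 wildtype-labelled and 120 knockout-labelled core UMIs, 170-fold and 145-fold above the remaining nuclei. Erg, a related factor that maintains endothelial identity, had 33 and 35 UMIs, at 114-fold and 105-fold. Adgrl4, an adhesion receptor of vessels, had 66 and 119 UMIs, at 229-fold and 304-fold. Egfl7, a secreted endothelial protein, had 190 and 159 UMIs, at 365-fold and 159-fold. All 4 genes were far above the remaining nuclei in both libraries. The others were Cd34, Ptprb, Tie1, Cyyr1, Adgrf5, Rasgrp3, Rassf9, Mmp28, Zfp366, Aplnr and the rule genes Flt1, Kdr, Pecam1 and Emcn, with 1700018A04Rik and Gm27201. Folds of the 20 genes, over the members of both libraries, ran from 27.4 to 71.9.

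**Figure D2:**
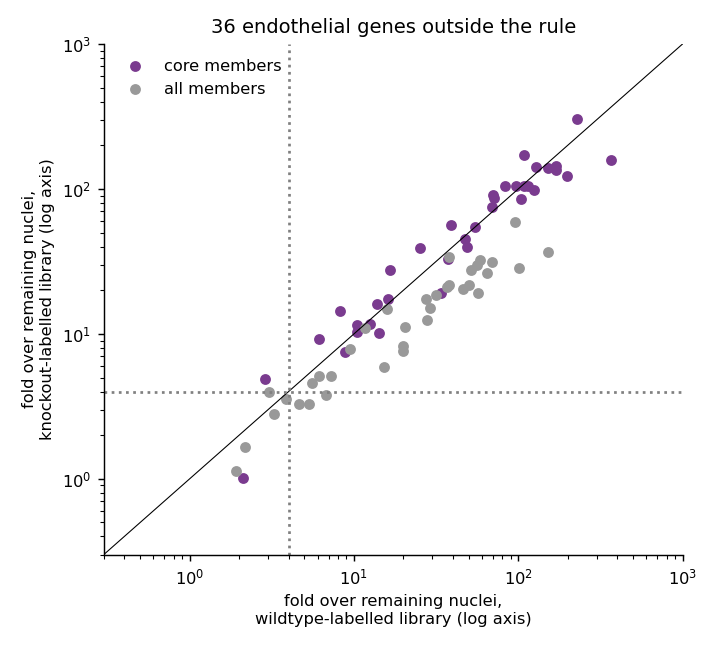
Each point is 1 of 36 endothelial genes outside the rule, with its fold over the remaining nuclei in the wildtype-labelled library on the x axis and in the knockout-labelled library on the y axis, both on log axes. Dotted lines mark 4-fold; all members (grey) lie mostly under the diagonal, with medians of 23.9 and 13.7, and core members (purple) lie close to it, with medians of 51.4 and 55.5.

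Nuclei of the vessel wall and of connective tissue were compared by the same genes. Pericytes and smooth muscle cells wrap the vessels, and 22 and 33 nuclei had at least 3 UMIs of the mural genes Rgs5, Kcnj8, Abcc9 and Higd1b with at most 3 endothelial ones. Fibroblasts line the meninges, and 57 and 86 nuclei had at least 4 UMIs of the 3 collagen genes. Over all members, the median of the 36 endothelial genes was 1.87-fold (wildtype-labelled) and 2.34-fold (knockout-labelled) the level in mural nuclei, with 17 and 27 of the 36 at 2-fold or more. Against fibroblast nuclei it was 5.09-fold and 5.33-fold. In the core, which was selected on these genes, the medians were 4.07-fold and 9.11-fold against mural and 11.2-fold and 22.0-fold against fibroblast nuclei. These folds use a floor of 3 UMIs where a gene was at or under it. Adgrl4, Tie1 and Cd34, for example, had 0 UMIs in the mural nuclei of both libraries, so for such genes the fold is set by the floor. In CPM this floor was 2.30-fold lower in knockout-labelled than in wildtype-labelled mural nuclei. The folds of the libraries against mural nuclei are therefore not on the same scale. The core held 7 and 8 UMIs of the 4 mural genes and 9 and 2 UMIs of the 3 collagen genes, which the rule limits.

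Cav1 is annotated at chr6:17306140-17341451 (plus strand, GRCm39), with Cav2 upstream of it at chr6:17281026-17289877. The noncoding RNA Gm15581 runs over both from the other strand, at chr6:17206822-17385603. Whether the counting used the strand is not given in the sources used here, so its reads and theirs cannot be told apart with certainty. The 3′ counts do not show which exons a Cav1 transcript holds.

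In the core, 7 Cav1 UMIs were counted in 5 of 32 wildtype-labelled nuclei, 73.1 CPM (29.4 to 151). In the knockout-labelled core 0 were counted in 33 nuclei, with an interval that reached 42.4 CPM. Against a floor of 3 UMIs over the group, knockout-labelled core nuclei stood 2.12-fold lower. This value is set by the floor and is not a bound: the exact interval of the log2 ratio reached up to −0.39. A Cav1 UMI was found in 15.6% of wildtype-labelled core nuclei (5.28% to 32.8%, Clopper-Pearson). For the knockout-labelled core, 0 of 33 nuclei leaves room for a share of 9.09% (3 nuclei), or 10.6% by the exact bound. At 1000 UMIs per nucleus the shares were 3 of 30 nuclei (10.0%, 2.11% to 26.5%, 2 shallower nuclei left out) and 0 of 32 (1 left out), whose exact bound is 10.9%. These intervals overlap, but no interval of the difference was computed, and the shares rest on 1 random draw of UMIs. They do not settle whether the shares differ at equal depth.

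Over all members the counts were 13 Cav1 UMIs in 7 of 46 nuclei, 47.2 CPM (25.1 to 80.7), against 4 UMIs in 3 of 74 nuclei, 6.78 CPM (1.85 to 17.4). The log2 ratio of CPM, knockout-labelled over wildtype-labelled, was −2.80 (−4.87 to −1.11). All 4 knockout-labelled UMIs lay outside the core, in nuclei with 1.34%, 1.49% and 1.90% neuron UMIs. Of the 13 wildtype-labelled UMIs, 6 lay outside it, in nuclei of 12992 and 52277 UMIs with 1.59% and 1.76%. In cortical neuron nuclei the share with a Cav1 UMI was 0.266% (wildtype-labelled, median depth 2854 UMIs) and 1.55% (knockout-labelled, 3259.5 UMIs). These nuclei held 4 and 15 Cav1 UMIs, a log2 ratio of 1.83 (0.18 to 3.88), higher in the knockout-labelled library. In the remaining nuclei the shares were 0.798% and 1.11%. The wildtype-labelled core share lay above all of these shares, and the knockout-labelled core was at 0.

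Cav2, which encodes the partner caveolin 2, and Gm15581 differed strongly between the libraries in the remaining nuclei, and neither was counted higher in the knockout-labelled endothelial core. Wildtype-labelled remaining nuclei held 16 Cav2 UMIs (0.945 CPM) and knockout-labelled ones 732 (38.0 CPM), at a log2 ratio of 5.33 (4.62 to 6.14). Gm15581 had 48 UMIs (2.84 CPM) and 1774 UMIs (92.0 CPM) there, a log2 ratio of 5.02 (4.61 to 5.46). In the endothelial core only 2 Cav2 UMIs were wildtype-labelled, 20.9 CPM (2.53 to 75.4), and 1 was knockout-labelled, 11.5 CPM (0.291 to 64.1). Both counts are under the floor, and no fold is given. Gm15581 had 8 wildtype-labelled core UMIs, 83.5 CPM (36.1 to 165), and 3 knockout-labelled ones, 34.5 CPM (7.12 to 101), a log2 ratio of −1.27 (−3.82 to 0.78). The intervals of this ratio in the core and in the remaining nuclei did not overlap. By level, the wildtype-labelled core stood above the wildtype-labelled remaining nuclei for both genes, while the intervals of the knockout-labelled core include the levels of the knockout-labelled remaining nuclei.

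The other members stood nearer to the remaining nuclei. Outside the core Cav2 had 1 UMI in 14 wildtype-labelled nuclei and 31 UMIs, 61.6 CPM (41.8 to 87.4), in 41 knockout-labelled nuclei, a log2 ratio of 3.47 (0.88 to 8.82). Gm15581 had 6 and 57 UMIs there, 33.4 and 113 CPM, a log2 ratio of 1.76 (0.55 to 3.27). Summed over all members Cav2 had 3 and 32 UMIs (2.32, 0.64 to 4.67) and Gm15581 14 and 60 UMIs (1.00, 0.14 to 1.95). Fibroblast nuclei also differed, with 1 and 17 Cav2 UMIs and 3 and 31 Gm15581 UMIs. Mural nuclei had 0 and 15 Gm15581 UMIs. In the wildtype-labelled library the core level of Gm15581 was the highest of these groups, and in the knockout-labelled library it was the lowest, within the interval just given.

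**Figure D3:**
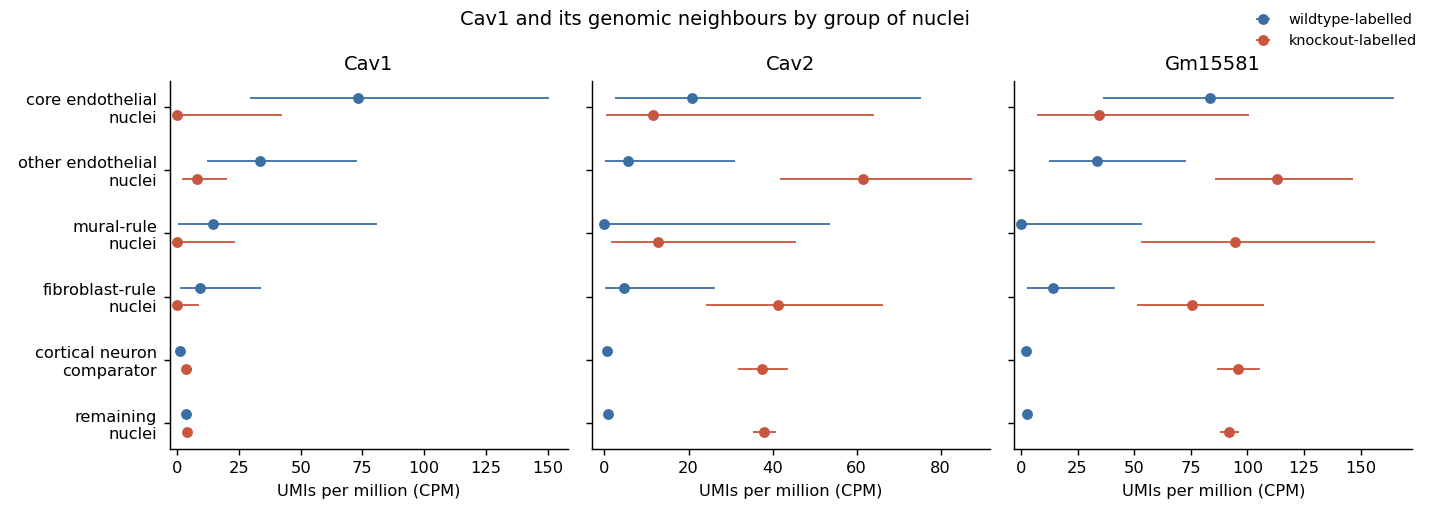
Levels of Cav1, Cav2 and Gm15581 in CPM (x axis) in 6 groups of nuclei (y axis), with points for the wildtype-labelled (blue) and knockout-labelled (red) library and bars for exact Poisson intervals of the counts. Cav2 and Gm15581 stand higher in the knockout-labelled library in cortical neuron and remaining nuclei, and the intervals of both libraries overlap in the endothelial core.

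The genes of caveolae were thinly counted. Of 14 genes in this list, Cav2 included, 0 reached 20 UMIs in the core. Over all members 4 did, of which 2 stood 2-fold or more higher, Cav2 and the flotillin gene Flot2 (6 and 31 UMIs, 1.27, −0.01 to 2.82), and 0 lower. Cavin1, which coats and stabilises caveolae, had 2 UMIs in each library's core, and Cavin2 had 0 and 1, Cavin3 1 and 1, and Cavin4 and the muscle caveolin Cav3 0 and 0. Ehd4, an ATPase related to the one at the caveolar neck, had 6 and 6 UMIs, and Pacsin2, which bends membranes there, had 7 and 4. The list summed to 0.0324% and 0.0322% of core UMIs, a log2 ratio of −0.01 (−0.80 to 0.78). No difference in the list's sum was detectable in the core at this depth.

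Over all genes, 10.5% of the 8154 tested in all members stood 2-fold or more higher in the knockout-labelled library and 10.4% 2-fold or more lower, with a floor of 3 UMIs. In the core 4.77% of 2202 genes stood 2-fold or more higher and 5.31% 2-fold or more lower, and the median log2 ratio of all of them was 0.01. These shares are the background for the lists below. Between the cores, other RNA was also unequal: neuron genes made up 0.150% and 0.112% of UMIs, erythroid genes 0.149% and 0.0851%, and cell cycle genes 0.183% and 0.128%. The 40 endothelial genes outside the rule, on which the core was selected, made up 1.64% and 1.91%, a log2 ratio of 0.22 (0.12 to 0.32). The part of these differences in the ratios below was not tested. Ratios in the core and over all members often differed, and both are given for the genes that lead each group. Some genes on which the core was selected, among them Esam, Robo4, Tie1 and Nos3, also stand in lists below. Their core ratios only describe the core.

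Nutrient transport genes summed higher in the knockout-labelled core and lower over all members. The 31 genes of the list summed to 1139 wildtype-labelled (1.19%) and 1398 knockout-labelled core UMIs (1.61%), a log2 ratio of 0.44 (0.32 to 0.55). All members together gave 1520 and 2897 UMIs, a ratio of −0.17 (−0.26 to −0.08). Of 21 with at least 20 core UMIs, 3 stood 2-fold or more higher (Slc38a5, Bsg and Slc38a3) and 0 lower, with a median log2 ratio of 0.43. Slc38a5 lost this place without 1 nucleus described below. Slc2a1, the glucose transporter of the barrier, had 67 UMIs in 23 of 32 nuclei and 117 UMIs in 28 of 33 nuclei, a log2 ratio of 0.94 (0.50 to 1.40). Bsg, basigin, the partner of monocarboxylate transporters, had 40 and 109 UMIs (1.59, 1.05 to 2.15). Both were found in more nuclei of the knockout-labelled core. Over all members Slc2a1 stood at −0.07 (−0.45 to 0.32) on counts of 86 and 176, and Bsg at 0.74 (0.35 to 1.14) on 71 and 254. The amino acid transporter gene Slc38a5 had 23 and 46 UMIs (1.14, 0.39 to 1.93, or 0.94 without that nucleus), and Tfrc, the transferrin receptor that carries iron, had 37 and 64 (0.93, 0.32 to 1.56). Lrp8, a lipoprotein receptor, had 88 and 134 UMIs (0.75, 0.35 to 1.15).

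Other transporters had intervals that include 0. Slc7a1, which carries cationic amino acids, had 201 and 169 UMIs (−0.11, −0.41 to 0.19). Slc7a5, of the large neutral amino acid carrier, had 98 and 98 UMIs (0.14, −0.28 to 0.56). The thyroid hormone transporter gene Slco1c1 had 49 and 45 (0.02, −0.60 to 0.63). For Mfsd2a, the lipid transporter that restrains caveolar traffic, the counts were 30 and 41, a log2 ratio of 0.59 (−0.12 to 1.32). The efflux pump genes Abcb1a (16 and 18 UMIs) and Abcg2 (32 and 37 UMIs) were at 0.31 (−0.74 to 1.38) and 0.35 (−0.37 to 1.08). Over all members no transport gene of 27 stood past 2-fold, and the median was −0.12.

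Among junction genes, Cldn5 and Lsr stood past 2-fold in the core, Cldn5 only with 1 nucleus described below. The UMIs of Cldn5 help to choose the members, so its ratio among them only describes them. Cldn5, the main claudin of brain endothelium and a rule gene, had 141 wildtype-labelled core UMIs (1472 CPM) and 269 knockout-labelled ones (3095 CPM), a log2 ratio of 1.07 (0.77 to 1.38). It was found in 26 of 32 and 31 of 33 nuclei. Over all members it stood at 0.00 (−0.27 to 0.27) on counts of 172 and 368. Without rule genes, the list had 16 members, of which 9 reached 20 UMIs in the core. Of these, 1 stood 2-fold or more higher, Lsr, a protein of tricellular junctions, with 7 and 21 UMIs (1.73, 0.44 to 3.20), and 0 lower. Esam, an adhesion molecule of endothelial junctions, had 33 and 58 UMIs (0.95, 0.31 to 1.62). It is among the genes on which the core was selected, and it counts in the summed list. Tjp1, the scaffold ZO-1, had 94 and 106 UMIs (0.31, −0.10 to 0.73). The median log2 ratio of the 9 genes was −0.18, on the other side of 0 from the summed list (0.16, −0.06 to 0.38). Over all members the summed list was at −0.42 (−0.59 to −0.26), and the median of 12 such genes was −0.61.

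**Figure D4:**
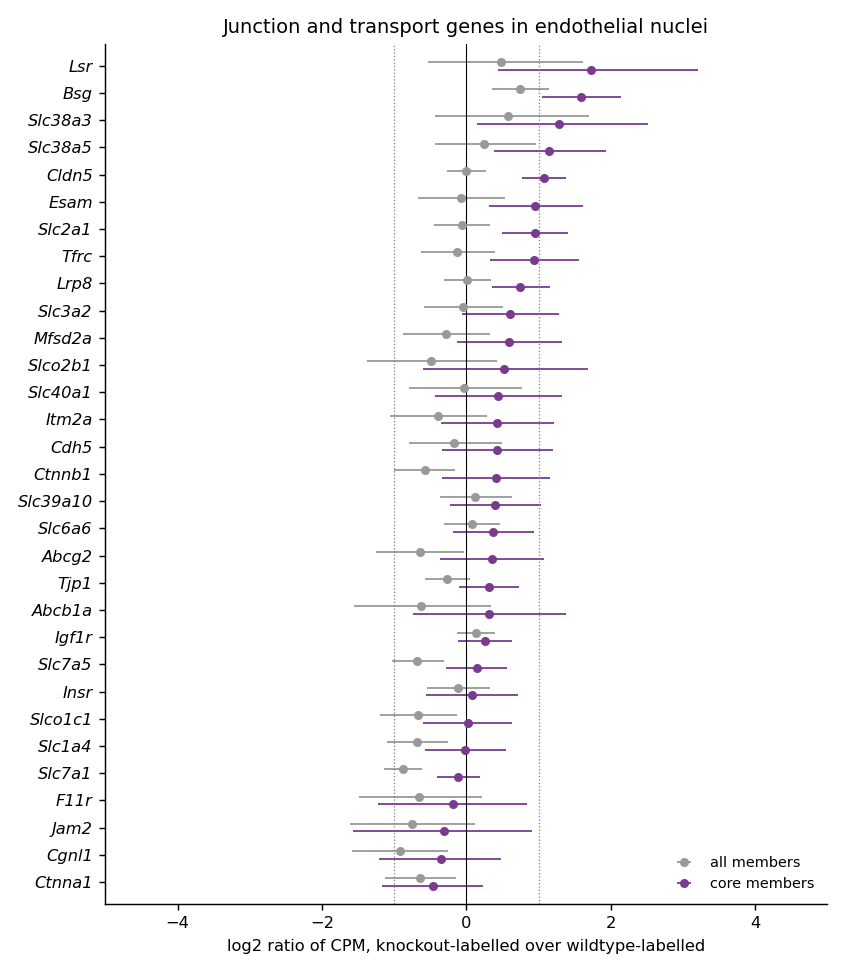
Log2 ratios of CPM, knockout-labelled over wildtype-labelled (x axis), of junction and transport genes with at least 20 core UMIs (y axis), in all members (grey) and in the core (purple), with exact intervals of the counts and dotted lines at 2-fold. Core ratios lie to the right of those over all members for most genes, with Bsg at 1.59 and the rule gene Cldn5 at 1.07.

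Wnt pathway genes of the barrier summed to 0.535% and 0.670% of core UMIs, a log2 ratio of 0.32 (0.15 to 0.50). Over all members the summed list was on the other side of 0, at −0.21 (−0.33 to −0.08), with a median of −0.18. Of 13 with at least 20 core UMIs, 0 stood past 2-fold in either direction. Apcdd1, a target and inhibitor of Wnt signals, had 77 and 108 UMIs (0.63, 0.19 to 1.07), and Spock2, a matrix proteoglycan, 87 and 128 (0.70, 0.29 to 1.11). The transcription factor genes Lef1, with 50 and 63 UMIs (0.47, −0.09 to 1.04), and Tcf7l2, with 48 and 30 (−0.54, −1.25 to 0.15), lay on different sides of 0 with intervals that include it. Adgra2 and Reck, which form the Wnt7 co-receptor, had 9 and 11, and 1 and 3 UMIs.

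Basement membrane genes summed higher in the knockout-labelled core and slightly lower over all members. Their list of 22 genes summed to 604 UMIs (0.631%) and 888 UMIs (1.02%), a log2 ratio of 0.70 (0.55 to 0.85). All members together gave 822 and 1599 UMIs, a ratio of −0.14 (−0.26 to −0.02). Of 16 with at least 20 core UMIs, 3 stood 2-fold or more higher (Fn1, Nid2 and Itga5) and 0 lower, and the median log2 ratio was 0.74. Col4a1 and Col4a2, the collagen IV chains that form the network, had 83 and 142, and 70 and 119 UMIs, both at a log2 ratio of 0.91. Fn1, fibronectin, had 41 and 85 UMIs (1.19, 0.64 to 1.77), and Sparc, a collagen-binding protein, 53 and 93 (0.95, 0.45 to 1.47). Lama4, the laminin chain of endothelium, had 78 and 112 UMIs (0.66, 0.23 to 1.10). For the crosslinker gene Nid1 the counts were 28 and 28 (0.14, −0.67 to 0.95), with 11 of the knockout-labelled UMIs in 1 nucleus. Over all members the list median was −0.13, with Col4a1 at −0.13 (−0.46 to 0.22) and Fn1 at 0.14 (−0.32 to 0.62).

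A single knockout-labelled core nucleus bore on these values. It had 6467 UMIs, 133 of the rule genes, 128 of the tip cell list and all 11 core UMIs of Esm1 in that library, a gene of sprouting tip cells. The tip cell list of 17 genes summed to 295 and 488 core UMIs, 0.308% and 0.561%, a log2 ratio of 0.87 (0.65 to 1.08). Without that nucleus it was 0.54 (0.31 to 0.77), and over all members it was −0.10 (−0.27 to 0.08). Without it the basement membrane list was at 0.53 (0.37 to 0.69) and the transport list at 0.47 (0.35 to 0.58). The ratios of Col4a1 and Col4a2 became 0.66 (0.23 to 1.09) and 0.74 (0.28 to 1.20). Nid2 fell short of 2-fold at 0.93 (−0.06 to 1.97), as did Slc38a5 at 0.94 (0.15 to 1.76), and Nid1 changed sign to −0.47 (−1.43 to 0.45). Cldn5 was then at 0.96 (0.65 to 1.27), Slc2a1 at 0.87 (0.41 to 1.34) and Bsg at 1.68 (1.15 to 2.25). Of 9 tip cell genes with at least 20 core UMIs, 2 stood 2-fold or more higher with that nucleus (Nid2 and Mcam) and neither without it. Mcam, an adhesion molecule, had 8 and 17 UMIs with it (1.23, −0.06 to 2.65) and 8 and 6 without it (−0.16, −1.97 to 1.55). Angpt2, an angiopoietin of sprouting vessels, had 12 and 15 UMIs (0.46, −0.73 to 1.69, or −0.01 without it), and Pdgfb, which recruits pericytes, 25 and 31 (0.45, −0.36 to 1.27).

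**Figure D5:**
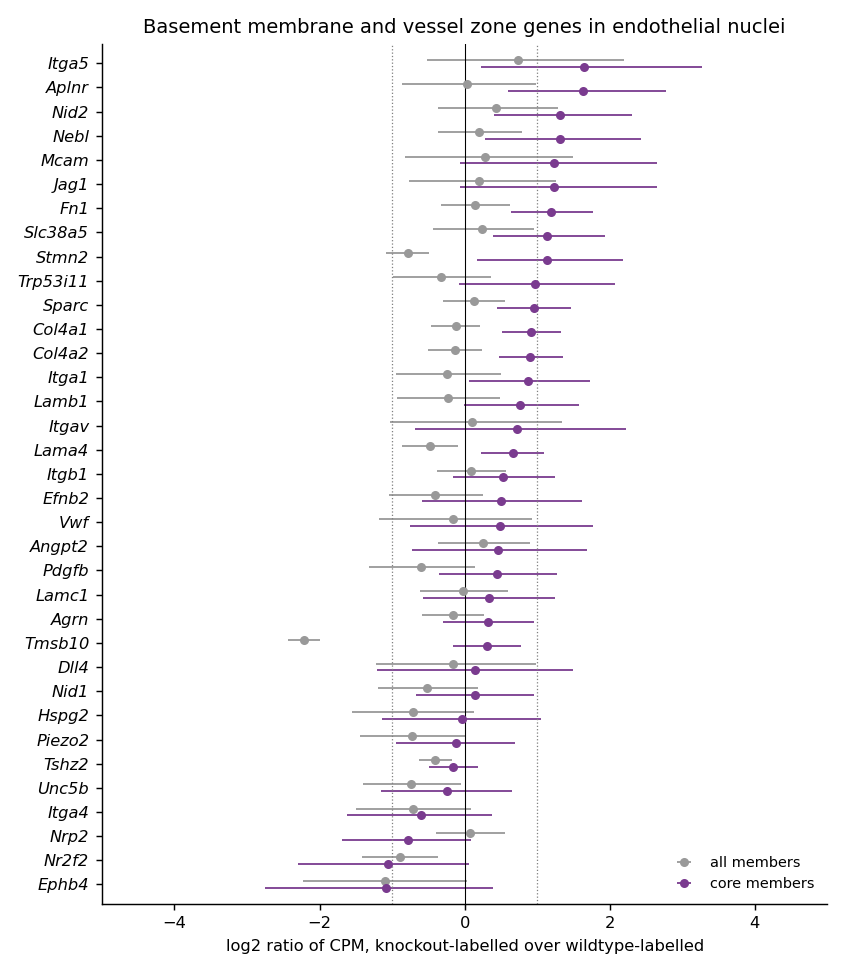
Log2 ratios of CPM, knockout-labelled over wildtype-labelled (x axis), of basement membrane, arterial, venous and tip cell genes with at least 20 core UMIs (y axis), in all members (grey) and in the core (purple), with exact intervals of the counts and dotted lines at 2-fold. Fn1, Col4a1 and Col4a2 lie at 1.19, 0.91 and 0.91 in the core; Nr2f2 and Ephb4 lie at −1.06 and −1.08.

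Genes of vessel zones went both ways. The arterial list of 18 genes summed to 121 and 164 core UMIs, a log2 ratio of 0.58 (0.23 to 0.93), and 3 of 6 with at least 20 UMIs stood 2-fold or more higher: Nebl, the Notch ligand gene Jag1 and Stmn2, which is also a neuron gene. Over all members the summed arterial list was at −0.47 (−0.66 to −0.28), and the median of 10 genes was −0.28. Dll4, another Notch ligand, had 11 and 11 UMIs (0.14, or −0.21 without the nucleus just described), and the arterial ephrin gene Efnb2 14 and 18 (0.50, −0.59 to 1.62). Of 8 venous genes, 2 stood 2-fold or more higher (Aplnr and Slc38a5) and 2 lower. The lower ones were Nr2f2 and Ephb4. Nr2f2, the transcription factor that sets venous identity, had 23 and 10 UMIs (−1.06, −2.30 to 0.07). The ephrin receptor gene Ephb4 had 14 and 6 (−1.08, −2.75 to 0.39, or −0.97 without the nucleus just described). Aplnr, the apelin receptor of veins and sprouts, had 11 and 31 UMIs (1.63, 0.60 to 2.78), against 0.03 (−0.86 to 0.98) over all members. Plvap, which marks leaky fenestrated vessels, had 4 and 3 UMIs in the core, and the lymphatic gene Lyve1 0 and 0.

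VEGF and angiopoietin receptors were mixed. Flt1, a VEGF receptor that acts largely as a decoy, had 210 and 309 core UMIs (0.70, 0.44 to 0.96) and a ratio of −0.06 (−0.29 to 0.17) over all members. Kdr, the main signalling receptor, had 69 and 58 (−0.11, −0.64 to 0.41). Tek and Tie1, the angiopoietin receptor and its co-receptor, had 48 and 34 (−0.36, −1.04 to 0.31), and 17 and 15 UMIs. Flt1, Kdr and Tek are rule genes, so their ratios only describe the chosen nuclei. Outside the rule, 2 of 12 genes of the list stood 2-fold or more higher, Aplnr and Robo4, and 0 lower. Robo4, a guidance receptor of endothelium, had 8 and 17 UMIs (1.23, −0.06 to 2.65), or 0.95 without the nucleus rich in tip cell UMIs. Plxnd1, a semaphorin receptor of vessels, had 25 and 39 UMIs (0.78, 0.02 to 1.57), or 0.70 without that nucleus.

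Of 33 endothelial genes outside the rule with at least 20 core UMIs, 4 stood 2-fold or more higher in the knockout-labelled core (Cd93, Robo4, Ramp2 and Icam2) and 1 lower (Ldb2). Over all genes the shares were 4.77% and 5.31%, but the core was selected on these endothelial genes, so the count and those shares are not alike. Cd93 and Robo4 fell short of 2-fold without the nucleus rich in tip cell UMIs. Over all members 0 of 36 stood 2-fold or more higher and 5 lower. Cd93, a lectin-like receptor of endothelium, had 28 and 58 core UMIs (1.19, 0.52 to 1.90), 0.84 (0.11 to 1.58) without the nucleus rich in tip cell UMIs, and 0.05 (−0.58 to 0.72) over all members. Ramp2, a partner of the adrenomedullin receptor, had 12 and 28 core UMIs (1.36, 0.34 to 2.47) and stood at 0.63 (−0.20 to 1.53) over all members. Emcn, a sialomucin of veins and capillaries and a rule gene, had 42 UMIs in 17 nuclei and 21 UMIs in 11 nuclei. Its log2 ratio was −0.86 (−1.69 to −0.07), short of 2-fold. Without the nucleus rich in tip cell UMIs it was past 2-fold, at −1.23 (−2.19 to −0.35) on 42 and 15 UMIs. Over all members it stood at −1.49 (−2.13 to −0.86). Ldb2, a cofactor of LIM-domain proteins, had 48 and 18 UMIs (−1.27, −2.14 to −0.47), and over all members it stood at −0.99 (−1.35 to −0.63). It does not mark these nuclei: the remaining nuclei stood at 238 and 203 CPM, and the core at 501 and 207 CPM. Both were lower by either set of nuclei. Among clathrin and vesicle traffic genes Epn2, an endocytic adaptor, had 23 and 8 UMIs (−1.38, −2.75 to −0.17), the 1 gene of 14 past 2-fold, but −0.01 (−0.57 to 0.56) over all members, and that list summed to 0.293% and 0.280%. Nos3, the endothelial nitric oxide synthase that caveolin 1 binds, had 17 and 11 UMIs (−0.49, −1.73 to 0.69), and 0 of the 9 genes of its list with enough UMIs stood past 2-fold.

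Cell cycle genes summed lower in the knockout-labelled core. Their list of 26 genes summed to 175 and 111 UMIs, at a log2 ratio of −0.52 (−0.87 to −0.17). With all members the ratio was −0.14 (−0.33 to 0.04). A single nucleus held 42 of the 111 knockout-labelled UMIs, and another 31 of the 175 wildtype-labelled ones. Of 4 genes with at least 20 core UMIs, 1 stood 2-fold or more lower, Top2a, the mitotic topoisomerase, with 16 and 7 UMIs, and 0 higher. The others were Smc4 (17 and 9), Atad2 (13 and 10) and Ezh2, which went the other way (12 and 19). Smc4 was at −1.03 without the nucleus rich in tip cell UMIs. Under that count were Mki67, found in proliferating cells, with 11 and 4 UMIs, and the spindle motor genes Kif11 and Cenpe, with 13 and 2, and 14 and 3. Nuclei with at least 3 cell cycle UMIs numbered 16 of 32 and 13 of 33 (39.4%). At 1000 UMIs per nucleus they were 5 of 30 (16.7%, 5.64% to 34.7%) and 6 of 32 (18.8%, 7.21% to 36.4%). A difference in the share of dividing nuclei was not detectable at this depth.

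Genes enriched at least 4-fold in the members and with the most extreme ratios over all members had core ratios of the same sign, apart from 1 gene not counted there. The core nuclei are themselves members, so the 2 sets of ratios are not independent. Plod1, which modifies collagen lysines, had 5 and 23 core UMIs in 5 and 16 nuclei (2.34, 0.91 to 4.09). Adamtsl2, a secreted microfibril protein, had 4 and 17 UMIs in 4 and 14 nuclei (2.23, 0.61 to 4.26). Prr5l, Gm47896, Itga5, Pdgfd, Nxpe2, Msn and Ccdc60 had core ratios of 0.63 to 1.80. The tenth of the higher genes, Cdc20b, had 1 wildtype-labelled and 89 knockout-labelled UMIs, 88 of them in 1 nucleus outside the core. At the lower end, Dipk2b, Emcn, Slc39a8, Dysf, Adora2a, Ostf1, Zfp69, Piezo1, Thsd1 and Tie1 had core ratios of −0.86 to −0.04, none at 2-fold. Over all members they had stood at −2.10 to −1.16. Emcn did pass 2-fold in the core without the nucleus rich in tip cell UMIs, at −1.23.

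Without the 4-fold condition the most extreme genes were ones that the core hardly held, or globin and ribosomal protein genes. Slit3, Spock3, Htr2c and Ndst4, with 111 to 163 UMIs in knockout-labelled members, had 0 or 1 in the knockout-labelled core. Hba-a1, Hba-a2 and Hbb-bt, the globin genes, and the ribosomal protein genes Rps19 and Rpl29 were lowest, at −3.74 to −3.30. Most of their wildtype-labelled UMIs lay outside the core, which held 23 of 99 for Hba-a1 and 21 of 167 for Rps19.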

How the data were processed

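The authors deposited raw UMI counts per gene and barcode for 1 library per genotype. The file headers name Cell Ranger 6.1.1, while the submitters' processing notes name Cell Ranger 3.0.1, STAR and GRCm39; annotation, intron counting and strand use are not given in the sources used here. From the deposited counts, nuclei were filtered and chosen as described, summed per library and scaled to CPM over their own UMIs, with exact Poisson, conditional binomial and Clopper-Pearson intervals (scipy 1.17.1). A gene needed at least 20 UMIs, and a floor of 3 UMIs was used. With 1 library per genotype no test was made. Genes were named where they led by fold over the remaining nuclei, by ratio (with and without 4-fold enrichment), or stood in a list. Members and lists were chosen with earlier results of these data known, and the core after its values were seen. On simulated data, 195 of 200 genes changed 4-fold were recovered past 2-fold, and 4.82% of unchanged genes passed. These were Poisson counts at the summed depth of all members, without spread between nuclei. The rates therefore cover counting error only and do not carry over to the core. Thinning, Scrublet scores (scanpy 1.11.5), other thresholds and scaling were tried. A junction gene that counts in its list is not reported by name or plotted here.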

Additional observations from a re-analysis of the deposited data

Results flagged for a closer look

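For 8 genes among those named by rank the log2 ratio, knockout-labelled over wildtype-labelled, had opposite signs in endothelial nuclei by the rule and in the remaining nuclei, with neither counting interval including 0. Other genes had opposite signs with an interval that includes 0 and are not listed. The difference was not tested. Egfl7 stood at −0.96 in the members and 1.08 in the remaining nuclei, Cyyr1 at −0.94 and 0.88, and Mmp28 at −0.95 and 0.94. Kdr stood at −0.73 and 1.06, Ptprb at −0.53 and 0.68, and Dipk2b at −1.72 and 1.81. In the core the ratios of these 6 genes were −0.12, 0.20, −0.05, −0.11, 0.31 and −0.86. Slit3 stood at 3.44 in the members and −0.15 in the remaining nuclei, and Htr2c at 3.41 and −0.20. Both were hardly counted in the knockout-labelled core. Single knockout-labelled nuclei outside the core held 56, 39, 39 and 16 of the Htr2c UMIs. The nucleus with 56 also held 195 UMIs of choroid plexus genes. These ratios therefore rest on few barcodes and do not describe the core.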

How the results depend on the processing

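No paired analysis was possible because each genotype has 1 library. With the rule applied after thinning to 1000 UMIs, the knockout-labelled members numbered 53, Gm15581 stood at a log2 ratio of −1.29, Cav1 shares were 5.56% and 0%, dividing shares 13.9% and 11.3%, and 55 genes stood 2-fold higher and 41 lower. There the venous list (0.12), the erythroid list (1.46), Dipk2b (0.44), Hba-a2 (0.12) and Hbb-bt (1.51) changed sign. With the 8% highest Scrublet scores removed, 55 knockout-labelled members were left. At an endothelial sum of 3 or more Htr2c was at −0.36. With at least 50 UMIs per gene, 332 stood higher and 375 lower. With members thinned to 1000 UMIs the Cav1 shares were 2.27% (1 of 44 nuclei) and 2.74% (2 of 73), so the knockout-labelled share was not lower there. At 2000 UMIs they were 8.33% (3 of 36) and 3.28% (2 of 61). Thinned shares rest on 1 random draw of UMIs per set of nuclei.

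The other settings were chosen after seeing the data. In the core the nuclei numbered 32 and 33, their shares differed by 0.0154 points, Cav1 was at −1.08 with the floor, Gm15581 at −1.27, the knockout-labelled Cav1 share at 0% and the dividing share at 39.4%, with 105 genes higher and 117 lower. The nitric oxide list median (0.025), the venous list (0.11) and Slit3 (−0.27 against the floor, on counts of 4 and 0) changed sign; without the nucleus richest in tip cell UMIs the venous list was at 0.12. Without members over 12000 UMIs Gm15581 was at −0.049, with 376 genes higher and 210 lower. With a neuron share of 0.5% or less alone, 41 knockout-labelled nuclei were left, Gm15581 was at −0.61, the Cav1 share at 0%, the dividing share at 41.5%, and 154 genes stood higher and 117 lower. Why these values moved was not tested.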
